A study of Mus musculus with 6 samples.

Results

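The type I interferon signal chain was described here through 9 genes, chosen by name: the receptor genes Ifnar1 and Ifnar2, the transcription factor genes Stat2, Irf1, Irf3, Irf7 and Irf9, and the inhibitor genes Socs1 and Socs3. All 9 were found by symbol among the 54331 genes of the expression table, and all 9 passed the filter on low values, a mean over the 6 libraries of 1 TPM or more, that left 15382 genes to test. TPM (transcripts per 1000000 of the library's transcripts) is a level per transcript length. The data are RNA sequencing of 6 mouse cultures during reprogramming to induced pluripotent stem cells. The starting cells were embryonic fibroblasts from pooled male E13.5 embryos of a mixed C57BL/6, DBA/2 and ICR background that carried an Oct4-EGFP transgene. Every culture received retroviral Oct4, Sox2 and Klf4 together with AKT-MER, a myristoylated AKT kinase fused to a modified estrogen receptor that 4-hydroxytamoxifen (4OHT) switches on. From 3 days post infection (dpi), 3 wells received 1 µM 4OHT (OSKA + 4OHT) and 3 wells received ethanol vehicle (OSKA − 4OHT), all in embryonic stem cell medium with leukemia inhibitory factor (LIF), and RNA was taken at 10 dpi. The wells came from one transduced pool of cells, so that the p-values measure the spread between wells. No library with 4OHT but without AKT-MER was analysed here, so that AKT activation and 4OHT itself cannot be told apart.

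Type I interferons bind a receptor made of IFNAR1 and IFNAR2, whose attached JAK kinases phosphorylate STAT proteins. STAT2 and IRF9 are subunits of the complex ISGF3, which binds the interferon-stimulated response element in the promoters of antiviral genes. IRF3 and IRF7 switch on the interferon genes themselves once they are phosphorylated after a cell has sensed foreign nucleic acid, and IRF1 acts on an overlapping set of promoters. SOCS1 and SOCS3 are feedback inhibitors of JAK signaling. SOCS3 is also induced through STAT3 when LIF acts on its receptor, the same signal that keeps mouse pluripotent cells self-renewing.

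Values in TPM keep no sequencing depth, so the depth behind each level is unknown. Between 15814 and 18230 genes were above 0 per library, and the correlation of log2 levels was 0.809 to 0.864 within a group and 0.792 to 0.833 between groups. Groups were compared gene by gene with limma-trend on log2(TPM + 0.5), and a gene passed the test where its p-value, adjusted by Benjamini-Hochberg over the 15382 genes, was under 0.05. Fibroblast markers summed to 3321 to 3958 TPM in OSKA − 4OHT and 3004 to 3432 TPM in OSKA + 4OHT, all 9 listed markers were detected, and 2 passed as higher and 2 as lower. Pluripotency markers summed to 29.1 to 41.9 TPM and 113 to 119 TPM, with 5 of 9 higher and passing the test. Of all genes tested, 3.52% passed as higher and 1.97% as lower. Among the 5, Nanog, Zfp42 and Dppa5a averaged under 1 TPM in OSKA − 4OHT. They passed the filter through OSKA + 4OHT alone, so that they had to differ. Of 13 macrophage and leukocyte markers, all were tested and 1 (Lyz2) was lower and passed, and their sum was 184 to 221 TPM in OSKA − 4OHT and 129 to 146 TPM in OSKA + 4OHT. Of 6 T, B and NK cell markers, 4 were listed at 0 in every library. Both libraries numbered replicate 3 stood apart from the others: 8 genes known from the epididymal epithelium, listed after their values were seen, summed to 8462 TPM in OSKA − 4OHT replicate 3 and to 883 TPM in OSKA + 4OHT replicate 3, against at most 0.681 TPM elsewhere. Where leaving out both changed the call of a member or the count of calls of a list, the values are given both ways, and the part of the other cell types in the results was not tested. In bulk cultures, fewer cells of a type and less RNA per cell cannot be told apart.

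Promoters of the members were read as the 300 bases from 250 before to 50 after the start, from RefSeq on GRCm38.p6, where all 9 genes matched and Irf1 and Irf9 have 2 starts each. They were searched on both strands for the response element bound by ISGF3 and IRF proteins, written as GAAA, any 2 bases and GAAA again, for its form with 3 bases between these letters, and for the STAT dimer motif TTCNNNGAA. The promoters of Stat2, the member that passed the test of the groups, and of Socs1 were the ones that held the element, and they are printed for that reason beside Irf1, which held the STAT dimer motif, and Irf7, which held none of these letters. Capitals mark the matches, and all are written 5′ to 3′ on the strand of the gene. They are Stat2 at chr10:128270248-128270547 on the plus strand, Socs1 at chr16:10785487-10785786 on the minus strand, Irf1 (its first start) at chr11:53769764-53770063 on the plus strand, and Irf7 at chr7:141266375-141266674 on the minus strand.
Stat2: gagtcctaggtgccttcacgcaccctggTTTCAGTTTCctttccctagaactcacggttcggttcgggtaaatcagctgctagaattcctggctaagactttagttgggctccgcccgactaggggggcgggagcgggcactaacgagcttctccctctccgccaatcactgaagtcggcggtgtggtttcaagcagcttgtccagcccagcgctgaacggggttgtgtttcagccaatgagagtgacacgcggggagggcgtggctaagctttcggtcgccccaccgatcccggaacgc
Socs1: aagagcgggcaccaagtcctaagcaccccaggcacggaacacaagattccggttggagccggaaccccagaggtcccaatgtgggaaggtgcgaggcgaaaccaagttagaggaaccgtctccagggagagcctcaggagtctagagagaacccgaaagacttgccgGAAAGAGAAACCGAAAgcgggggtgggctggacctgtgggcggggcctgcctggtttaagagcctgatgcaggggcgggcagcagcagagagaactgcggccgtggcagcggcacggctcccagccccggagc
Irf1: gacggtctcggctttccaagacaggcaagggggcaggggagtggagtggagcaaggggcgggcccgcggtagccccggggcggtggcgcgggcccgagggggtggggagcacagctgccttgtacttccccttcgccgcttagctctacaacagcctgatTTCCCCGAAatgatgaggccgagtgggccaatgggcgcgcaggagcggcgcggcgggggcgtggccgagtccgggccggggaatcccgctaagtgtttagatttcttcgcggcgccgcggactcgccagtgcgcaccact
Irf7: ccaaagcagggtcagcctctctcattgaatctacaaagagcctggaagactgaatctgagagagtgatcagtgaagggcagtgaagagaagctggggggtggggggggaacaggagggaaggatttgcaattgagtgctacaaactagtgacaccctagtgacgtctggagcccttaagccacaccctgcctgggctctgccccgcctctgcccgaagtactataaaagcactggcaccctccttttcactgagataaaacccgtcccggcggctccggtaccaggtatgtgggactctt

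The Stat2 match lay from 222 to 213 bases before the start and reads as the element on the opposite strand. Distances are from the RefSeq start, and the whole Stat2 window lies before the start of the gene in the GENCODE annotation (chr10:128270559). For Ifnar1 and Socs3 the end of the window was not found whole in a GENCODE transcript of the gene either. In Socs1 the 2 matches, at 83 to 74 and at 77 to 68 bases before the start, overlapped each other. The element with 2 spacer bases was thus found in 2 of 9 members, or 2 of their 11 promoters, and in 3.44% of all 32851 promoters of the table. The same letters were held by 8 of the 14 ISGF3 target genes with a promoter in the table, a list that is described further on. The form with 3 spacer bases was found in 0 of 9 members, or 0 of their 11 promoters, and in 2.75% of all promoters. The STAT dimer motif was found in 4 of 9 members, or 4 of their 11 promoters, and in 8.30% of all promoters. The 4 members were Ifnar1 across the start, Ifnar2 at 214 to 206, Irf1 at 90 to 82 and Socs3 at 154 to 146 bases before the start. No member held both kinds of motif, and Irf3, Irf7 and Irf9 held neither in these windows. A match is a string of letters and not a shown binding site.

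**Figure D1:**
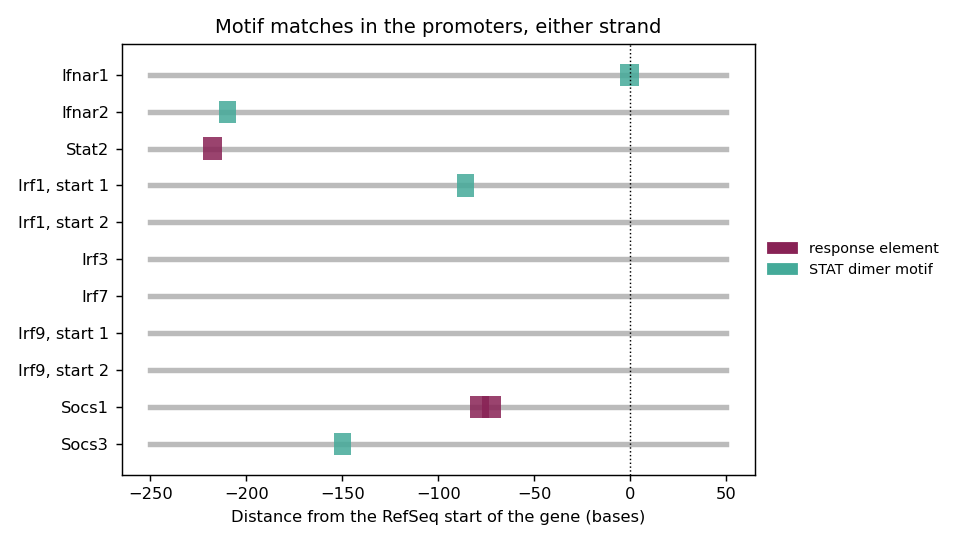
Position of each motif match, in bases from the RefSeq start, in the 11 promoters of the 9 genes. Purple blocks are matches to the interferon-stimulated response element (Stat2, and 2 overlapping matches in Socs1), and green blocks are matches to the STAT dimer motif (Ifnar1, Ifnar2, the first start of Irf1, and Socs3).

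The comparison asked how the RNA level of each step of this chain differed between cultures with and without 4OHT. Stat2, the ISGF3 subunit, rose 3.88 times on the mean and was the 1 member of 9 that passed the test. Irf7 had the largest difference, 4.63 times on the mean, but its libraries varied widely and it did not pass. Irf9, Irf3, Ifnar2 and Socs1 were also higher in every OSKA + 4OHT library than in every OSKA − 4OHT library without passing. Ifnar1 was nearly level, and Irf1 and Socs3 differed on the mean through a single OSKA + 4OHT library. No member passed as lower.

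Counted over the members, 1 of 9 passed as higher, against 3.52% of all genes tested, and 0 of 9 passed as lower, against 1.97% (5.49% in either direction). The unadjusted p-value was under 0.05 in 5 of 9 members (Ifnar2, Stat2, Irf3, Irf7 and Irf9), against 21.3% of all genes. The groups did not overlap in 6 of 9 members, all higher in OSKA + 4OHT, against 18.1% of all genes (28.2% without overlap in either direction). One of the 6, Socs1, averaged under 1 TPM in OSKA − 4OHT and passed the filter through OSKA + 4OHT alone, and 5 of the other 8 members did not overlap. The log2 fold change was above 0 in 8 of 9 members, against 59.3% of all genes, and its median was 0.76 over the members and 0.14 over all genes. The median of all genes moved to 0.02 after TMM scaling and to −0.00 after quantile normalization. Set against the unscaled median, the log2 differences of the members ran from −0.24 for Ifnar1 through 1.82 for Stat2 to 2.33 for Irf7. An exact permutation test of 3 against 3 libraries cannot give a 2-sided p under 0.1, so that none is quoted.

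**Figure D2:**
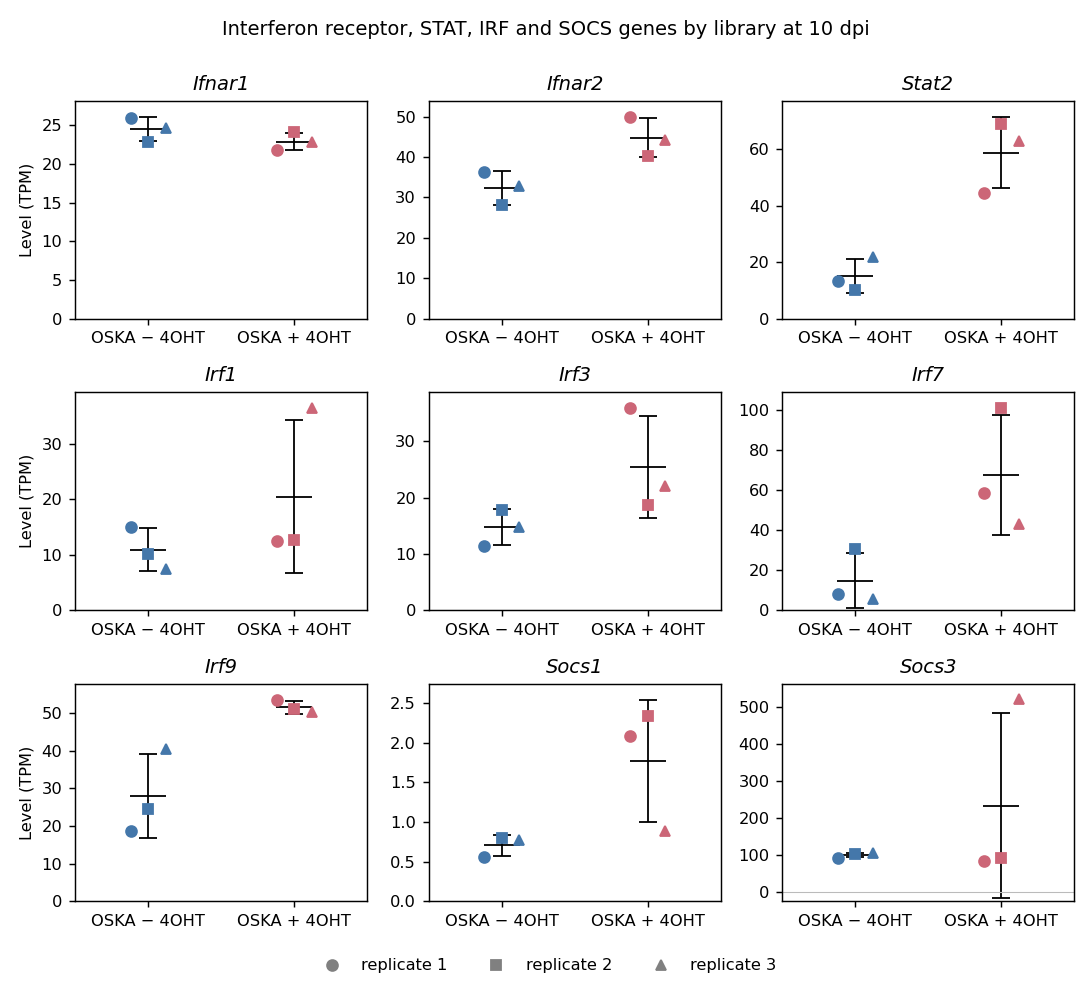
Level in TPM of each of the 9 genes in every library, on a linear axis for each gene. Symbols mark the replicate number, horizontal lines the group mean and error bars the SD of 3 libraries; Stat2, Irf7 and Irf9 are higher in every OSKA + 4OHT library, whereas OSKA + 4OHT replicate 3 alone carries Socs3 (522 TPM) and Irf1 (36.5 TPM).

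**Figure D3:**
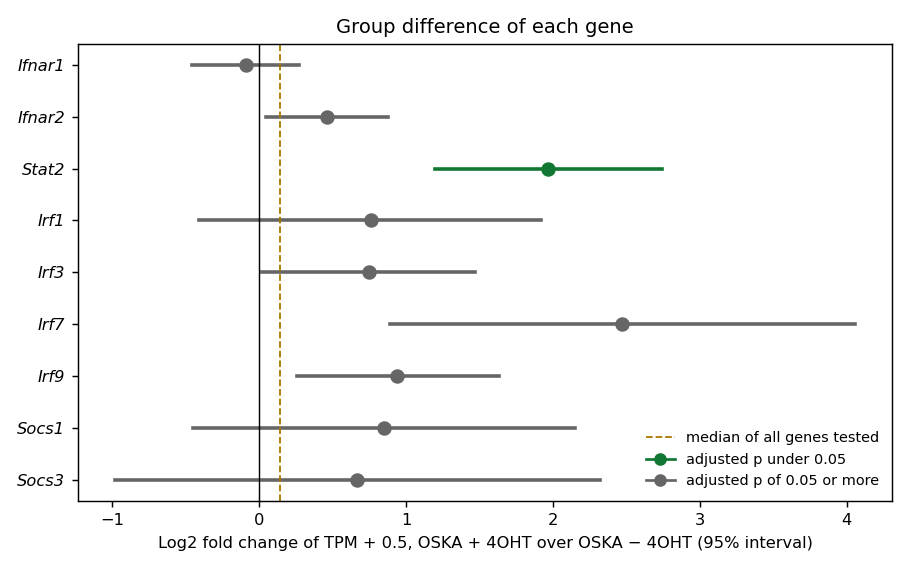
Log2 fold change of TPM + 0.5 with its 95% interval for each gene, OSKA + 4OHT over OSKA − 4OHT. The interval of Stat2 runs from 1.20 to 2.74 and passes the test (green); the widest intervals are those of Socs3 and Irf7, and the dashed line is the median of all genes tested (0.14).

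Of the receptor chains, Ifnar1 (chr16:91485238-91507441, GRCm38, plus strand), the chain that anchors the kinase TYK2, held 26.0, 22.8 and 24.7 TPM in OSKA − 4OHT and 21.8, 24.1 and 22.9 TPM in OSKA + 4OHT. The groups overlapped and all 6 libraries lay close together. Its log2 fold change was −0.09 (95% interval −0.46 to 0.27; limma adjusted p = 0.765), and this interval leaves out a rise or fall of 1 on the log2 scale. It stayed below 0 in all 17 alternative settings, from −0.24 to −0.05, without passing in any.

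Ifnar2 (chr16:91372783-91405589, plus strand), the chain with high affinity for the ligand, held 36.3, 28.0 and 32.9 TPM in OSKA − 4OHT and 49.9, 40.3 and 44.2 TPM in OSKA + 4OHT. Every OSKA + 4OHT library was above every OSKA − 4OHT library, and the means were 32.4 ± 4.17 and 44.8 ± 4.85 TPM (SD, n = 3). This gave a log2 fold change of 0.46 (SE 0.171, 95% interval 0.05 to 0.88), and the limma adjusted p was 0.186 (0.0323 before adjustment). Ifnar2 shares 315 exonic bases on the same strand with Gm21970, so that reads there may be split between these genes.

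Among the other receptor and JAK kinase genes, 0 of 7 tested passed in either direction, against 5.49% of all genes. Their median log2 fold change was −0.08. Jak2, a kinase of the interferon gamma and many cytokine receptors, named here after its values were seen, held 31.9, 28.1 and 31.4 TPM in OSKA − 4OHT and 18.4, 20.3 and 18.4 TPM in OSKA + 4OHT. The groups did not overlap, with a log2 fold change of −0.66 and a limma adjusted p of 0.0624. Its partner Jak1, also named afterwards, which serves the type I and the gamma interferon receptor, had a log2 fold change of −0.46 and an adjusted p of 0.292. In this list the groups did not overlap in 4 of 7 tested genes, against 28.2% of all genes in either direction.

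Stat2 (chr10:128270559-128292849, plus strand) is the subunit that gives ISGF3 its main activation domain. It held 13.2, 10.3 and 21.9 TPM in OSKA − 4OHT and 44.6, 68.8 and 62.9 TPM in OSKA + 4OHT. The lowest OSKA + 4OHT library was above the highest OSKA − 4OHT library, which was replicate 3. Means were 15.1 ± 6.06 and 58.8 ± 12.6 TPM (SD, n = 3). The log2 fold change was 1.97 (SE 0.319, 95% interval 1.20 to 2.74), with a limma adjusted p of 0.0239. This call was lost in 5 of the 6 fits with 1 library left out. In these 6 fits the count of higher calls over all genes also fell, from 542 to between 112 and 318. With any library other than OSKA − 4OHT replicate 3 left out, the limma adjusted p was 0.0651 to 0.0963. With both replicate 3 libraries left out it was 0.0853. The log2 fold change was 1.73 to 2.26 with 1 library left out and 2.20 with both out. With the replicate number as a block in the fit, the log2 fold change was 1.97 and the limma adjusted p was 0.0882. A 459-base transcript of Stat2 holds a stretch that matches transcripts of many other genes, over up to 152 bases (95.4% identity). Reads there may be split between genes, and their part in the Stat2 level was not tested.

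The 3 tested genes nearest to Stat2, by the root mean square distance of their centred log2 levels over the 6 libraries, were Oas1a (distance 0.193), Zwilch (0.207) and Krt14 (0.237). Oas1a, which encodes a sensor enzyme that makes 2′-5′-linked oligoadenylates from double-stranded RNA and is itself an ISGF3 target, held 8.21, 8.99 and 15.5 TPM in OSKA − 4OHT and 36.4, 42.1 and 40.7 TPM in OSKA + 4OHT. Like Stat2, all 3 had their highest OSKA − 4OHT value in replicate 3. Zwilch encodes a kinetochore protein and Krt14 a keratin of basal epithelium, and neither passed the test (log2 fold change 1.60 and 1.61, limma adjusted p 0.0657 and 0.0613).

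Irf9 (chr14:55603571-55610030, plus strand), the DNA-binding subunit of ISGF3, held 18.8, 24.4 and 40.4 TPM in OSKA − 4OHT and 53.5, 50.9 and 50.1 TPM in OSKA + 4OHT. The OSKA + 4OHT libraries were almost equal, with a mean of 51.5 ± 1.76 TPM (SD, n = 3), and lay above all OSKA − 4OHT libraries, which spread more widely at 27.9 ± 11.2 TPM. Irf9 differed by 0.94 on the log2 scale (SE 0.284, 95% interval 0.26 to 1.63), with a limma adjusted p of 0.122. Without OSKA − 4OHT replicate 3, the library with the most epididymal RNA, the log2 fold change was 1.24 with an adjusted p of 0.0417, and with both replicate 3 libraries left out it was 1.26 with an adjusted p of 0.102. Irf9 shares 123 exonic bases with its same-strand neighbor Rnf31. It also matches the pseudogene Gm38002 over 180 bases (95.6% identity). Its 3869-base transcript matches several other genes over up to 128 bases (95.3% identity).

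Stat3, Stat5a, Stat5b and Stat6, other members of the STAT family, did not pass. Stat3, the factor that carries the LIF signal, held 124, 189.5 and 134 TPM in OSKA − 4OHT and 154, 158 and 154 TPM in OSKA + 4OHT. The groups overlapped, and the log2 fold change was 0.09 with a 95% interval of −0.35 to 0.52 and a limma adjusted p of 0.823.

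Irf7 (chr7:141262706-141266481, minus strand), the factor that amplifies interferon gene transcription and is itself an interferon-stimulated gene, held 7.90, 30.5 and 5.37 TPM in OSKA − 4OHT and 58.5, 101 and 43.0 TPM in OSKA + 4OHT. Replicate 2 was the highest library in both groups, yet the lowest OSKA + 4OHT value was above the highest OSKA − 4OHT value. Means were 14.6 ± 13.8 and 67.6 ± 30.2 TPM (SD, n = 3). The log2 fold change was 2.47 (SE 0.657, 95% interval 0.89 to 4.06), and the limma adjusted p was 0.0888 (0.00829 before adjustment). Without OSKA − 4OHT replicate 2 it was 3.19 with an adjusted p of 0.0370, and this was the 1 setting of 17 in which Irf7 passed. With both replicate 3 libraries left out it was 2.26 with an adjusted p of 0.224.

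Irf3 (chr7:44997648-45002848, plus strand), a factor that most cells hold before any stimulus, held 11.4, 17.8 and 14.8 TPM in OSKA − 4OHT and 35.9, 18.7 and 22.0 TPM in OSKA + 4OHT. The groups did not overlap, but the gap between OSKA − 4OHT replicate 2 and OSKA + 4OHT replicate 2 was narrow, and OSKA + 4OHT replicate 1 was well above the rest. For Irf3 the log2 fold change was 0.75 (95% interval 0.02 to 1.47), and the limma adjusted p was 0.223 (0.0453 before adjustment).

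Irf1 (chr11:53770014-53778374, plus strand), the factor that interferon gamma induces most directly, held 15.1, 10.1 and 7.38 TPM in OSKA − 4OHT and 12.4, 12.7 and 36.5 TPM in OSKA + 4OHT. Replicate 3 of OSKA + 4OHT was the highest of the 6 and the other OSKA + 4OHT libraries lay within the OSKA − 4OHT range. Irf1 had a log2 fold change of 0.76 (95% interval −0.41 to 1.92; limma adjusted p = 0.434), which was 0.26 without OSKA + 4OHT replicate 3 and 0.02 with both replicate 3 libraries left out. Irf1, Irf3 and Irf7 overlap exons of Gm17334, Bcl2l12 and Phrf1 on the opposite strand by 135, 88 and 45 bases, and the libraries were made with a stranded kit.

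Of the other IRF genes and IRF2 partners, 6 were tested and 0 passed in either direction, with a median log2 fold change of −0.14. Over all genes, 5.49% passed in either direction. The kinases and adaptors that switch on IRF3 and IRF7 gave 0 of 13, against the same 5.49%, with a median of 0.21. Of these, Mavs, the mitochondrial adaptor of the RNA sensors, and Tbkbp1, a partner of the kinase TBK1, were named after their values were seen. Mavs held 42.7, 29.3 and 24.7 TPM in OSKA − 4OHT and 50.6, 66.9 and 54.1 TPM in OSKA + 4OHT (log2 fold change 0.85, limma adjusted p = 0.108). Tbkbp1 held 3.79, 4.87 and 2.43 TPM in OSKA − 4OHT and 9.40, 7.14 and 11.4 TPM in OSKA + 4OHT (log2 fold change 1.24, limma adjusted p = 0.0837). In both genes the groups did not overlap, as was so in 3 of the 13 genes of the list, against 28.2% of all genes in either direction.

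The ligands were hardly seen in these libraries. Of 21 interferon genes matched, 20 were listed at 0 in every library, and the remaining one, Ifnz, was at 0.404 TPM in OSKA + 4OHT replicate 3 and at 0 in the other 5. None reached the mean of 1 TPM needed for the test. Most interferon transcripts come from single-exon genes expressed for a short time, and a value of 0 at unknown depth does not show that a gene was silent.

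Socs1 (chr16:10782240-10785536, minus strand), the inhibitor that binds JAK kinases directly, had the lowest level of the 9 in both groups. It held 0.553, 0.795 and 0.776 TPM in OSKA − 4OHT and 2.08, 2.33 and 0.890 TPM in OSKA + 4OHT. Replicates 1 and 2 of OSKA + 4OHT were clearly above all OSKA − 4OHT libraries, and OSKA + 4OHT replicate 3 was just above them. The log2 fold change was 0.85 (95% interval −0.45 to 2.15; limma adjusted p = 0.431), a scale that understates differences at such low levels because 0.5 TPM is added. Without OSKA + 4OHT replicate 3 it was 1.17 with an adjusted p of 0.313.

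Socs3 (chr11:117966079-117970047, minus strand), the inhibitor that binds the shared receptor chain gp130, had the highest mean of the 9 in both groups. It held 92.7, 103 and 104 TPM in OSKA − 4OHT and 84.1, 91.9 and 522 TPM in OSKA + 4OHT. One library, OSKA + 4OHT replicate 3, was far above the other 5, and the other 2 of OSKA + 4OHT were below all OSKA − 4OHT libraries. The log2 fold change of 0.67 (95% interval −0.98 to 2.32; limma adjusted p = 0.610) turned to −0.18 without OSKA + 4OHT replicate 3 and to −0.15 with both replicate 3 libraries left out. The part of the epididymal RNA in this was not tested. Irf1 was highest in the same OSKA + 4OHT library as Socs3.

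Among LIF and gp130 receptor genes, 1 of 10 tested passed, as lower, against 1.97% of all genes, and the median log2 fold change was −0.70. One of the 10, Il11, averaged under 1 TPM in OSKA + 4OHT and passed the filter through OSKA − 4OHT alone. The median of the other 9 was −0.65. Osmr, the oncostatin M receptor chain that pairs with gp130, fell from 49.5, 43.2 and 38.7 TPM to 18.2, 20.8 and 17.9 TPM (log2 fold change −1.18, limma adjusted p = 0.0159). With 1 library left out it passed in the absence of OSKA − 4OHT replicate 3 (adjusted p = 0.0389) and had an adjusted p of 0.0514 to 0.0746 in the absence of any other. With both replicate 3 libraries left out, the log2 fold change was −1.23 with a limma adjusted p of 0.0956, and the list had 0 calls. Lifr, the LIF-binding chain, held 7.44, 13.3 and 16.5 TPM in OSKA − 4OHT and 7.76, 6.02 and 4.94 TPM in OSKA + 4OHT, with overlapping groups (log2 fold change −0.89, limma adjusted p = 0.210). Il6st, which encodes gp130 and was named after its values were seen, varied more within groups than between them, with 580.1, 90.0 and 309.7 TPM in OSKA − 4OHT and 93.2, 101 and 508 TPM in OSKA + 4OHT.

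Of the other SOCS genes and brakes on the chain, 2 of 15 tested passed, both higher, against 3.52% of all genes, and the median log2 fold change was 0.16. Usp18, which removes ISG15 from proteins and blocks IFNAR2 signaling, rose from 6.77, 2.78 and 8.72 TPM to 39.8, 67.6 and 41.1 TPM (log2 fold change 3.01, limma adjusted p = 0.0168). Ptpn6, a phosphatase best known from blood cells, rose from 1.61, 1.96 and 1.69 TPM to 5.57, 6.17 and 8.41 TPM (log2 fold change 1.66, adjusted p = 0.0308). Groups were well apart in both genes, but Usp18 had an adjusted p of 0.0570 to 0.0719 when any OSKA + 4OHT library was left out, and Ptpn6 of 0.0747 to 0.114 when any of the 6 was. With both replicate 3 libraries left out, Usp18 was at 3.42 (adjusted p = 0.0939) and Ptpn6 at 1.48 (adjusted p = 0.153) in limma, and the list had 0 calls. It had 3 higher calls under each of the pseudocounts 0.1, 1 and 2. Cish and Socs2, STAT5-induced members of the SOCS family named after their values were seen, differed in opposite directions without passing. Cish held 33.9, 7.37 and 15.4 TPM in OSKA − 4OHT and 4.51, 4.11 and 4.17 TPM in OSKA + 4OHT (log2 fold change −1.77, limma adjusted p = 0.114), and Socs2 held 24.5, 22.2 and 21.5 TPM and then 45.5, 38.5 and 35.2 TPM (log2 fold change 0.78, adjusted p = 0.0501).

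**Figure D4:**
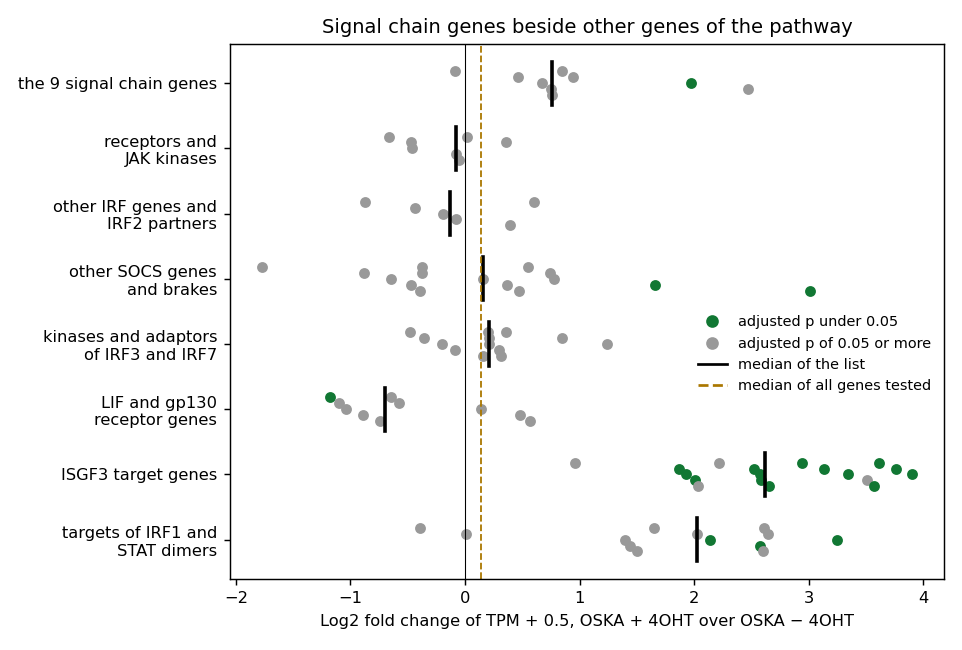
Log2 fold change of TPM + 0.5, OSKA + 4OHT over OSKA − 4OHT, for the 9 genes and for the tested genes of 7 lists of the pathway; each point is a gene, green where the adjusted p is under 0.05, and black bars are list medians. The ISGF3 targets (median 2.62) and the targets of IRF1 and STAT dimers (median 2.02), among them 6 and 3 genes that passed the filter through OSKA + 4OHT alone, lie to the right of the 9 genes (median 0.76), and the receptor, IRF and LIF lists lie near or below 0.

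Genes that the chain acts on were described as 2 lists. Leaving out those that passed the filter through OSKA + 4OHT alone, their median log2 fold changes were 2.55 and 1.83, and that of the members, without Socs1, was 0.76. Of 18 ISGF3 target genes, 14 passed as higher and 0 as lower, against 3.52% of all genes tested as higher, and the median log2 fold change was 2.62. Of the 18, 6 (Rsad2, Mx1, Mx2, Oas3, Oasl1 and Ddx60) averaged under 1 TPM in OSKA − 4OHT and passed the filter through OSKA + 4OHT alone, so that they had to differ, and of the other 12, 10 passed as higher. The groups did not overlap in any of these 12, against 18.1% of all genes. Isg15, the ubiquitin-like modifier, rose from 18.9, 33.9 and 18.1 TPM to 288, 394 and 272 TPM (log2 fold change 3.76, limma adjusted p = 0.00366). Mx2, an antiviral GTPase, and Rsad2, which encodes viperin, are among the 6 and are given as levels. Mx2 was at 0, 0.224 and 0.817 TPM in OSKA − 4OHT and at 12.2, 9.28 and 12.3 TPM in OSKA + 4OHT. Rsad2 was at 0.348, 1.52 and 0.536 TPM and then at 7.32, 23.2 and 16.9 TPM. The count passing was 8 without OSKA + 4OHT replicate 1, 6 without OSKA + 4OHT replicate 2, and 1 with both replicate 3 libraries left out. In the same settings the count over all genes tested went from 542 higher to 112, 123 and 53. With the replicate number as a block in the fit, 3 of the ISGF3 targets passed, and 31 of all genes were higher. The log2 fold change with both replicate 3 libraries left out was 3.71 for Isg15, against 3.76 with all libraries, and its limma adjusted p was then 0.0609.

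Of 13 tested target genes of IRF1 and of STAT dimers, 3 passed as higher, all guanylate-binding proteins, and 0 as lower, against 3.52% and 1.97% of all genes, with a median log2 fold change of 2.02. The 3 that passed averaged above 1 TPM in both groups, whereas 3 of the 13 did so in OSKA + 4OHT alone. Gbp3 rose from 10.5, 5.66 and 8.85 TPM to 66.0, 83.2 and 97.7 TPM, Gbp2 from 6.86, 6.92 and 8.24 TPM to 35.0, 32.6 and 84.5 TPM, and Gbp7 from 4.19, 5.86 and 3.06 TPM to 17.0, 18.9 and 26.4 TPM. These genes belong to a cluster of closely similar copies, whose reads the counting could have split. The count was 1 without OSKA + 4OHT replicate 1 and 1 without OSKA + 4OHT replicate 2, and 0 with both replicate 3 libraries left out, settings in which the count over all genes was 112, 123 and 53. With both left out the log2 fold changes were 3.18 for Gbp3, 2.21 for Gbp2 and 1.76 for Gbp7, against 3.25, 2.57 and 2.14 with all libraries. In all 3 genes the highest library was OSKA + 4OHT replicate 3, the library in which Irf1 was also highest.

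**Figure D5:**
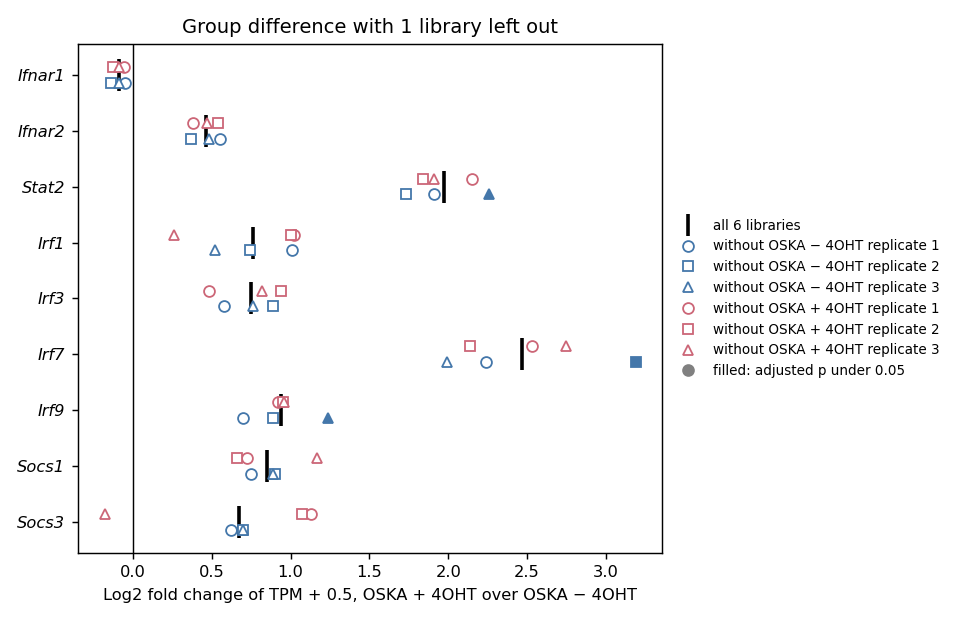
Log2 fold change of each of the 9 genes with all 6 libraries (black bars) and with 1 library left out in turn (symbols), filled where the adjusted p is under 0.05. Stat2 stays between 1.73 and 2.26, Irf7 between 1.99 and 3.19, and Socs3 moves to −0.18 without OSKA + 4OHT replicate 3.

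Ordered by mean level in OSKA − 4OHT, the genes ran Socs3 (99.9 TPM), Ifnar2 (32.4), Irf9 (27.9), Ifnar1 (24.5), Stat2 (15.1), Irf3 (14.7), Irf7 (14.6), Irf1 (10.9) and Socs1 (0.708 TPM). Library ranges separated Socs3 from Ifnar2, Ifnar1 from Stat2, and Irf1 from Socs1, and all other neighbors overlapped. In OSKA + 4OHT the order was Socs3 (233 TPM), Irf7 (67.6), Stat2 (58.8), Irf9 (51.5), Ifnar2 (44.8), Irf3 (25.5), Ifnar1 (22.9), Irf1 (20.5) and Socs1 (1.77 TPM). Here the ranges of Socs3, Irf7, Stat2 and Irf9 each overlapped that of the next, Irf9 was apart from Ifnar2, Ifnar2 from Irf3, and Irf1 from Socs1. The ISGF3 subunits Stat2 and Irf9 thus stood below or beside the receptor chains without 4OHT and above both with it, in mean TPM, although the library ranges of Stat2 and Ifnar2 overlapped in OSKA + 4OHT.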

How the data were processed

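Single-end reads of 50 bases from polyadenylated RNA, made with a stranded kit, were trimmed with Trim Galore and quantified per transcript with Salmon by the authors, who deposited 1 table of TPM values per gene. The genome build and annotation of that step are not given in the sources used here, and 54097 of 54331 gene IDs were paired with symbols from GENCODE on GRCm38. The deposited table also held the authors' own comparison (fold changes, CPM averages and p-values), which was not used. Genes averaging 1 TPM or more over the libraries were tested on log2(TPM + 0.5) with limma 3.58.1 (lmFit, eBayes with trend) in R 4.3.3, 3 libraries against 3, without covariates, and p-values were adjusted by Benjamini-Hochberg. TMM factors were computed from the TPM values as the trimmed mean of log ratios. The fit was tested on simulated data of the same 15382 genes, where 77% of 200 genes changed by 2 on the log2 scale were recovered with 5 false calls, and 0% of 200 changed by 1, so that a member that did not pass is not shown to be equal. The changed genes were drawn from those above about 5 TPM in OSKA − 4OHT, so the rates do not cover lower levels such as that of Socs1. Single high libraries, as in Socs3 and Irf1, were not simulated. TPM do not hold counts, so no count model was fitted.

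Named genes were the 9 members, every passing gene of a list with 5 or fewer and otherwise the 3 with the largest rise and 2 with the largest fall, Stat3, Lifr, and the 3 genes nearest to a passing member. Others are marked. One passing gene of the lists is not reported here. Members and lists were chosen with earlier results of these data known. Of 17 alternative settings 16 were planned and 1, both replicate 3 libraries left out, was chosen after seeing the data. Sequence similarity was checked with BLAST 2.17.0, and the matches of Stat2 and Irf9 with other genes are given with these genes. Ifnar1 matched other genes over at most 61 bases, and Irf1 matched Glo1 over 58. Protein sequences were not analysed here.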

Additional observations from a re-analysis of the deposited data

How the results depend on the processing

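Of 9 members, 1 (Stat2) passed as higher with all 6 libraries. The count was 1 under every pseudocount, filter, scaling and variance alternative, 0 to 2 with 1 library left out, and 0 with both replicate 3 libraries left out, which also has fewer samples. With 1 library left out, Socs3 ran from −0.18 to 1.13, below 0 without OSKA + 4OHT replicate 3, and with both replicate 3 libraries left out it was −0.15. The other 8 kept their direction in all settings run, and Socs1 has no value under the filter of 5 TPM. The median of the members was 0.59 to 0.95 over all settings. With the replicate block the count was 0, with an adjusted p of 0.0882 for Stat2, and 31 genes of all tested were higher and 16 lower, against 542 and 303. Deviations of same-numbered libraries correlated at 0.0235, 0.0341 and 0.0837. All libraries but OSKA + 4OHT replicate 1 correlated best with their own number, and that one with OSKA − 4OHT replicate 2 (0.0327). Both replicate 3 libraries share epididymal RNA. These small values do not settle whether the numbers are pairs. The main fit was planned without covariates, and the fit with the block is given beside it. Of all genes, 456 were higher and 480 lower after TMM scaling, and 428 and 434 after quantile normalization. For the named list genes, Ptpn6 had an adjusted p of 0.0788 without the filter and 0.0540 after quantile normalization. With the replicate block the 14 higher ISGF3 targets were 3, and the calls of Gbp2, Gbp3, Gbp7, Usp18, Ptpn6 and Osmr had adjusted p of 0.0555 to 0.121, which left 0 calls in their lists. The receptor and JAK kinase list, with 0 calls, had 1 lower call under the filter of 5 TPM, TMM scaling and quantile normalization, and the list of other IRF genes and IRF2 partners, also with 0, had 1 under both scalings. Unknown depth limits what can be said of Socs1 and the interferon genes.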
